A study of Mus musculus with 8 samples.

Results

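The clustered histone genes encode the linker histone H1 and the core histones H2A, H2B, H3 and H4 that package newly replicated DNA. Rows were taken by gene symbol, as those that carry the systematic names of the H1, H2A, H2B, H3 and H4 genes, and 73 of the 22520 rows of the table matched. They were 11 H1, 18 H2A, 19 H2B, 12 H3 and 13 H4 genes. In the GENCODE M21 annotation, 67 of them lie in a histone gene cluster, 54 on chromosome 13, 10 on chromosome 3 and 3 on chromosome 11. The other 6 are single genes that the match on symbols also takes in (H1f0, H1f7, H1f8, H1f9, H1f10 and H4c16).

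The cells were wild-type mouse CD8+ T cells from spleen, cultured for 6 days with antibodies to CD3 and CD28 and with IL-2, so that the T cell receptor was stimulated throughout. From day 3 to harvest on day 6 the medium held either DMSO, the solvent, or 40 µM DADA (diisopropylamine dichloroacetate), which inhibits pyruvate dehydrogenase kinase. Each group had 4 bulk RNA libraries, and both groups shared the same stimulation. The comparison asks how the histone genes differed between DADA and DMSO under that stimulation.

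Core histones and most H1 proteins are made in bulk only while DNA is being copied, in S phase. Their genes have almost no introns, and their mRNAs end in a short stem-loop that the protein SLBP binds, where other mRNAs have a poly(A) tail. An mRNA library that captures poly(A) tails therefore sees mainly the minority of such transcripts that carry a tail. Replication-independent histones, such as the linker histone H1.0 encoded by H1f0, come from ordinary polyadenylated mRNAs and are made outside S phase as well. The labels and the study's methods name different mRNA library kits, and neither says whether poly(A) tails were selected, so a level below is that of the RNA this library type holds, not of the whole histone mRNA pool.

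The stem-loop is shown because it is what sets these mRNAs apart, and because it differs between members at a few of its bases. The canonical histone 3′ stem-loop, with a stem of 6 paired bases and a loop of 4, was searched in the GENCODE M21 transcripts on the sense strand. It was found in 46 of 73 members and in 325 of 58717 other protein-coding transcripts (0.554%). The 16 bases of the stem-loop are in capitals and 5 bases on each side in lower case, 5′ to 3′ in DNA letters, for members described below.
H1f2: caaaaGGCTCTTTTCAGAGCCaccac
H2ac11: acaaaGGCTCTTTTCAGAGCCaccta
H2ac19: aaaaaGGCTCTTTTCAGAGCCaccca
H2bc11: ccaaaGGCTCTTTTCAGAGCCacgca
H2bc12: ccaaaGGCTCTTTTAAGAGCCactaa
H2bc27: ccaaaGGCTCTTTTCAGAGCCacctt
H3c3: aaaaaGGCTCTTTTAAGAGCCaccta
H4c2: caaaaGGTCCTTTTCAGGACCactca
H4c9: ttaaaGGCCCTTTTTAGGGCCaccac
Of the 46 members, 22 have an annotated transcript that ends within 60 bases of the stem-loop, and in 24 it runs on further, by at least 300 bases in 18. The annotated transcript of H4c9 runs 330 bases beyond it and that of H1f2 runs 840 bases. No stem-loop was found for H1f0, H1f10, H2ac13, H2bc21 or H3c10, and no match says only that these letters are not in the annotated transcript.

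Promoters of 62 members were in the RefSeq table (GRCm38.p6, 63 entries), and motifs were searched on both strands over the 250 bases before the start. CCAAT, the letters that the factor NF-Y binds, was in 79.4% of the members' promoters and in 33.8% of all 32851 promoters of the table. By type it was in 7 of 10 H1, 17 of 17 H2A, 15 of 15 H2B and 8 of 10 H3 promoters. In H4 promoters it was in 3 of 11 (27.3%), below the share of all promoters. TATAAA was in 44.4% against 12.4%. The octamer ATTTGCAT, the site of POU factors that is known from H2B promoters, was in 20.6% against 1.6%, namely in 7 of 15 H2B and 6 of 17 H2A promoters and in none of the H1, H3 or H4 promoters. AAACACA, known from H1 promoters, was in 14.3% of the members' promoters against 6.2% of all. It was in 5 of 10 H1, 2 of 17 H2A and 2 of 15 H2B promoters and in none of the H3 or H4 promoters. The 130 bases before the start are printed for 4 members that the results turn on, each on its own strand, with matches to these motifs in capitals.
H1f2, chr13:23738677-23738806 (+): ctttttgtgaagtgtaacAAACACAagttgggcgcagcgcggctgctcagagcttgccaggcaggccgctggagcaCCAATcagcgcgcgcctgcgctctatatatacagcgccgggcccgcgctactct
H2bc12, chr13:22035691-22035820 (+): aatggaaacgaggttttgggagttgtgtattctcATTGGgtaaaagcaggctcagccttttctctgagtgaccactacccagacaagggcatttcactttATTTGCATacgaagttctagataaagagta
H4c9, chr13:22041363-22041492 (-): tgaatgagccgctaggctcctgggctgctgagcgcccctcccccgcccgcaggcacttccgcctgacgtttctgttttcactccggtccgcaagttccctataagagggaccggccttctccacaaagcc
H1f0, chr15:79028082-79028211 (+): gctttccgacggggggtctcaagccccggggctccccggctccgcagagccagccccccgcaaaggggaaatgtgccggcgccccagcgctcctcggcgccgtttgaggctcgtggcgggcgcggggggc
The H1f2 promoter held AAACACA and CCAAT within this stretch, and the H2bc12 promoter held CCAAT (as ATTGG on the printed strand) and the octamer. The stretches of H4c9 and H1f0 held none of the 4 motifs.

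All values are deposited FPKM, which are fragments normalised for the length of the transcript and for the size of the library. The study's methods give a minimum sequence yield per library, but the mapped fragments of each library are not given in the sources used here, so counting error was not attached to single values. In the cells' own markers, the summed FPKM of 5 CD8 T cell genes was 674 to 680 with DMSO and 776 to 805 with DADA. Of the markers of other cells, B cell genes summed to 2.59 to 3.54 and 2.36 to 3.09 FPKM (4 genes), Cd4 stood at 0.144 to 0.411 and 0.151 to 0.272, 2 NK cell genes summed to 0 to 0.0959 and 0.144 to 0.336, and 4 globin genes to 0 to 0.326 and 0 to 0.369. The 5 myeloid genes summed to 3.44 to 3.96 and 5.11 to 5.59 FPKM, nearly all from Cd68, while Csf1r and Adgre1 were listed at 0 in every library. The part of these cells in the results below was not tested. The low end of the whole table differed between the groups, since the median FPKM over all 22520 rows was 0.42 to 0.425 in the DMSO libraries and 0.552 to 0.567 in the DADA libraries.

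Histone genes were scarce in these libraries. The 73 members together took 0.0175% of all FPKM with DMSO and 0.0263% with DADA. Among them 3 (H1f7, H1f9 and H2ac1) were listed at 0 in every library, 40 stayed under 1 FPKM in every library, and 3 had a mean of at least 5 FPKM over the 8 libraries. These were H1f0 with a mean of 29.7 FPKM, H4c9 with 10.6 and H3c3 with 5.28. The replicate spread was wide for genes this low. The median coefficient of variation of the members past the filter was 22.9% with DMSO and 14% with DADA, against 8.16% and 7.48% for all tested rows with a mean under 10 FPKM.

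**Figure D1:**
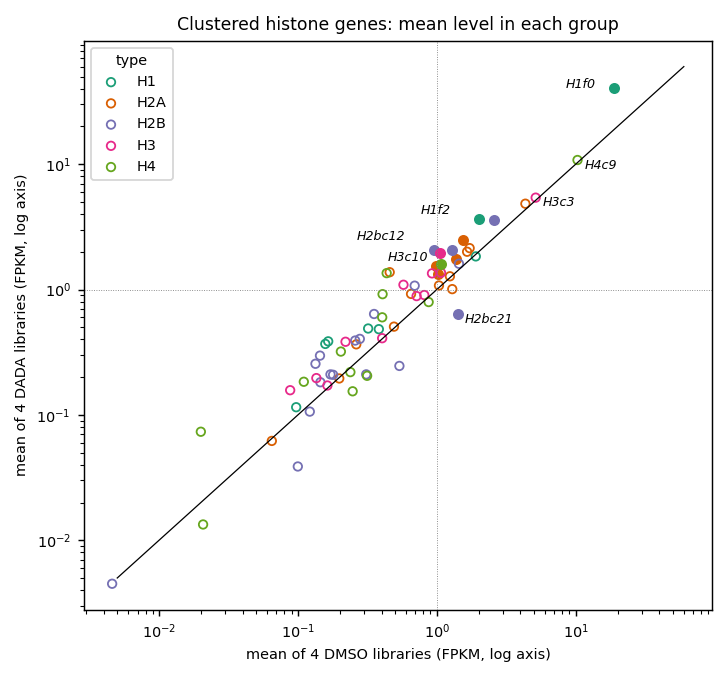
Mean FPKM of each histone gene in the 4 DMSO libraries (x axis, log scale) and the 4 DADA libraries (y axis, log scale), coloured by type. Filled points passed the limma test, the solid line marks equal levels and the dotted lines 1 FPKM. Members with a mean of 0 in either group are not drawn, most points lie near or below 1 FPKM, and H1f0 stands farthest out at 18.7 and 40.6 FPKM.

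The filter asked for 1 FPKM or more in 4 libraries, and 25 members passed it. Of these, 11 rose with DADA, 1 fell and 13 did not pass the test (limma on log2(FPKM + 1), adjusted p under 0.05). Over all 10666 rows tested the same rule called 66.2%, with 30.9% of the rows higher and 35.3% lower. Over the 4399 tested rows with a mean under 10 FPKM it called 58.2%, with 33.4% higher and 24.8% lower. The members' shares were 48.0% called, 44.0% higher and 4.0% lower. Fewer members were called than rows in general, and those that were called were nearly all higher. The difference of means on the log2 scale was above 0 for 22 of the 25 members, against 47.5% of all rows tested and 55.1% of the low rows, with a median of 0.21 against -0.02 and 0.04. The low rows reach up to a mean of 10 FPKM, while only 7 of all 73 members had a mean of at least 2 FPKM. The low end of the whole table also stood higher with DADA, so the low rows are not a matched background. Nor are the members independent, since 12 of the 25 share most of their 75-base stretches with other genes. The pattern of members lying higher also depended on the scaling. With TPM or median-ratio scaling 22 of the 25 stayed above 0, and with quantile normalization, which forces the same distribution on every library, 16 did, with a median of 0.06, 4 members called higher (H1f0, H1f2, H2bc12 and H3c10) and 2 lower (H2bc21 and H2ac25). The other 7 members called higher lost their call there. H2ac19 passed the filter with 4 DADA libraries and 1 DMSO library, and H2bc21 with its DMSO libraries alone. In bulk RNA, fewer cells that express a histone gene and less of its RNA per cell cannot be told apart.

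Among linker histones, H1f0 rose most. This gene encodes H1.0, the replication-independent linker histone that is known to accumulate in cells that divide little. Its FPKM was 19.5, 17.6, 19.1 and 18.7 in the DMSO libraries and 43.1, 40.0, 40.5 and 39.0 in the DADA libraries. The groups lay far apart, and every DADA library was above every DMSO library. The means were 18.7 ± 0.821 and 40.6 ± 1.77 (SD, n = 4 each), a ratio of 2.17, and the log2 difference was 1.08 (SE 0.040, limma adjusted p = 8.45e-09). The call was the same in all 16 alternative settings, and only 3.56% of tested rows were called higher by at least 1 on this scale.

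H1f2, a replication-dependent linker histone gene of the chromosome 13 cluster, rose too. It stood at 2.46, 2.32, 1.86 and 1.44 FPKM with DMSO and at 3.55, 3.87, 3.58 and 3.56 with DADA. The groups did not overlap, and the DADA libraries lay within a narrower range than the DMSO libraries. The log2 difference was 0.63 (SE 0.101, limma adjusted p = 3.26e-04), in a gene with only 6.7% of its 75-base stretches shared with other genes. H1f10, the other single linker histone gene past the filter, overlapped between the groups at 1.29 to 2.17 FPKM with DMSO and 1.58 to 2.32 with DADA, a log2 difference of -0.03 (limma adjusted p = 0.831). H1f1, an S phase linker histone gene under the filter, stood at 0.0911 to 0.244 FPKM with DMSO and 0.268 to 0.464 with DADA. The 6 H1 genes of the cluster summed to 2.60 to 3.42 FPKM with DMSO and 4.72 to 5.61 with DADA. Most of this sum was H1f2, with means of 2.02 and 3.64 FPKM. In the fit without a filter, described below, H1f1 and H1f6 were called higher (limma adjusted p = 0.00784 and 0.0348). H1f6 was at the floor, at 0 in all 4 DMSO libraries and at 0.0634, 0.0603, 0 and 0.0499 FPKM with DADA, and its groups overlapped. Of all rows in that fit 24.8% were called higher. H1f3, H1f4 and H1f5 were not called there (limma adjusted p = 0.572, 0.0913 and 0.52).

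Of the H2A genes, which encode a core histone of the nucleosome, 10 passed the filter, 4 rose, none fell and 6 did not pass the test. The share called higher was 40%, near the 33.4% of all tested rows with a mean under 10 FPKM. The highest H2A gene, H2ac11, did not pass the test. It stood at 5.32, 2.76, 4.74 and 4.54 FPKM with DMSO and at 4.48, 5.16, 4.24 and 5.47 with DADA. The groups overlapped throughout, and the log2 difference was 0.15 (SE 0.147, limma adjusted p = 0.39). H2ac19, of the chromosome 3 cluster, stood at 0.654, 0.858, 1.43 and 0.976 FPKM with DMSO and at 1.61, 1.73, 1.5 and 1.28 with DADA. Only DMSO library 3 reached into the DADA range, and the log2 difference was 0.36 (SE 0.114, limma adjusted p = 0.0169). H2ac18, its neighbour, had FPKM values of 0.842 to 1.2 with DMSO and 1.26 to 1.36 with DADA, with no overlap and a log2 difference of 0.21 (limma adjusted p = 0.0189). H2ac19 and H2ac18 each held their call in 14 of 15 alternatives and lost it with quantile normalization (limma adjusted p = 0.179 and 0.837). With 1 library left out, the limma adjusted p of each came as near the threshold as 0.05 after rounding.

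The other called H2A genes were closer to the threshold. H2ac13 stood at 2.23, 2.08, 0.642 and 1.24 FPKM with DMSO and at 2.53, 2.17, 2.87 and 2.31 with DADA. DMSO library 3 was far below its group, and DMSO library 1 lay within the DADA range. The log2 difference was 0.49 (SE 0.191, limma adjusted p = 0.043), and leaving out any 1 of DMSO libraries 3 and 4 or of the 4 DADA libraries ended the call (adjusted p from 0.0562 to 0.1). It was also lost with a pseudocount of 0.1, no filter, no trend, the replicate block and quantile normalization (adjusted p from 0.0533 to 0.114), and held in 4 of 15 alternatives. H2ac23 stood at 1.13, 1.40, 1.65 and 1.33 FPKM with DMSO and at 1.96, 1.63, 1.48 and 1.98 with DADA. The groups overlapped, the log2 difference was 0.22 (SE 0.088, limma adjusted p = 0.0497), and the call was lost without DMSO library 1, 2 or 4 or DADA library 1, 2 or 4 (adjusted p from 0.0615 to 0.132). It was also lost with a pseudocount of 0.1, no filter, the replicate block and quantile normalization (adjusted p from 0.0532 to 0.565), and held in 5 of 15 alternatives. H2ac11, H2ac13, H2ac18, H2ac19 and H2ac23 each share at least 77.6% of their 75-base stretches with other genes, so how their fragments were divided among near-identical copies is uncertain.

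Of the H2B genes, partners of H2A in the nucleosome, 6 passed the filter, 3 rose, 1 fell and 2 did not pass the test. The shares were 50% higher and 16.7% lower, against 33.4% and 24.8% of tested rows with a mean under 10 FPKM. The largest rise of an H2B gene was that of H2bc12. It stood at 1.02, 0.949, 1.21 and 0.618 FPKM with DMSO and at 1.86, 2.14, 2.02 and 2.24 with DADA. No DADA library reached down into the DMSO range. The means were 0.948 ± 0.245 and 2.06 ± 0.164 (SD, n = 4 each), a ratio of 2.18, and the log2 difference was 0.66 (SE 0.094, limma adjusted p = 1.41e-04). Its annotated transcript shares 72.6% of its 75-base stretches with other genes, among which the division of fragments is uncertain.

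H2bc21 was the 1 member past the filter that fell. It encodes an H2B variant best known from olfactory neurons, and its annotated transcript, with a length of 2620 bases, holds no stem-loop. It stood at 1.04, 1.46, 1.64 and 1.53 FPKM with DMSO and at 0.56, 0.763, 0.528 and 0.714 with DADA. All DADA libraries were below all DMSO libraries, with a mean ratio of 0.452 and a log2 difference of -0.56 (SE 0.092, limma adjusted p = 4.14e-04). None of its 75-base stretches is shared with another gene. It passed the filter through its 4 DMSO libraries alone, so it was not tested when any of them was left out, and it kept the call in the fit without a filter (limma adjusted p = 8.78e-04).

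H2bc11 and H2bc27 rose by less. H2bc11, the highest H2B gene, stood at 1.66, 2.25, 3.22 and 3.14 FPKM with DMSO and at 3.13, 3.70, 3.31 and 4.22 with DADA. DMSO libraries 3 and 4 reached the lower DADA values. The log2 difference was 0.38 (SE 0.144, limma adjusted p = 0.0385), and the call was lost without DMSO library 1 or 2 or DADA library 2, 3 or 4 (adjusted p from 0.0519 to 0.101). H2bc27, of the chromosome 11 cluster, stood at 1.19, 1.27, 0.822 and 1.82 FPKM with DMSO and at 2.24, 2.38, 2.05 and 1.57 with DADA. DMSO library 4 was above DADA library 4, and the other libraries were apart. The log2 difference was 0.44 (SE 0.132, limma adjusted p = 0.0143).

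Of the H3 genes, whose proteins carry many of the well-known histone modifications, 4 passed the filter, and 1 rose. That was 25%, against 33.4% of tested rows with a mean under 10 FPKM. H3c10 stood at 1.09, 0.846, 1.24 and 1.05 FPKM with DMSO and at 2.21, 2.06, 1.95 and 1.60 with DADA. The groups did not overlap, and the log2 difference was 0.52 (SE 0.084, limma adjusted p = 3.39e-04). Its annotated transcript shares 93.5% of its 75-base stretches with other genes. H3c3, the highest H3 gene, did not pass the test. It stood at 5.77, 4.50, 4.69 and 5.63 FPKM with DMSO and at 5.35, 5.94, 4.47 and 5.86 with DADA, with a log2 difference of 0.06 (SE 0.094, limma adjusted p = 0.598). The groups covered the same range.

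Of the H4 genes, the partners of H3, 2 passed the filter and 1 rose. Of tested rows with a mean under 10 FPKM 33.4% were called higher, and 2 genes are too few to compare. H4c9 was the highest of all genes in the clusters, at 11.6, 10.7, 8.52 and 10.4 FPKM with DMSO and at 11.8, 11, 10.2 and 10.1 with DADA. The groups overlapped, and the log2 difference of 0.07 (SE 0.082, limma adjusted p = 0.499) was within the replicate spread. H4c2 stood at 1.29, 1.19, 0.777 and 1.00 FPKM with DMSO and at 1.90, 1.72, 1.28 and 1.44 with DADA. DADA library 3 lay just below DMSO library 1, and the log2 difference was 0.32 (SE 0.102, limma adjusted p = 0.018), which was lost without DADA library 1 or 2 (adjusted p = 0.0557 and 0.0512). The 3 highest members of the clusters, H4c9, H3c3 and H2ac11, were thus all uncalled, while the genes that rose there had means of 1.17 to 3.08 FPKM over the 8 libraries.

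**Figure D2:**
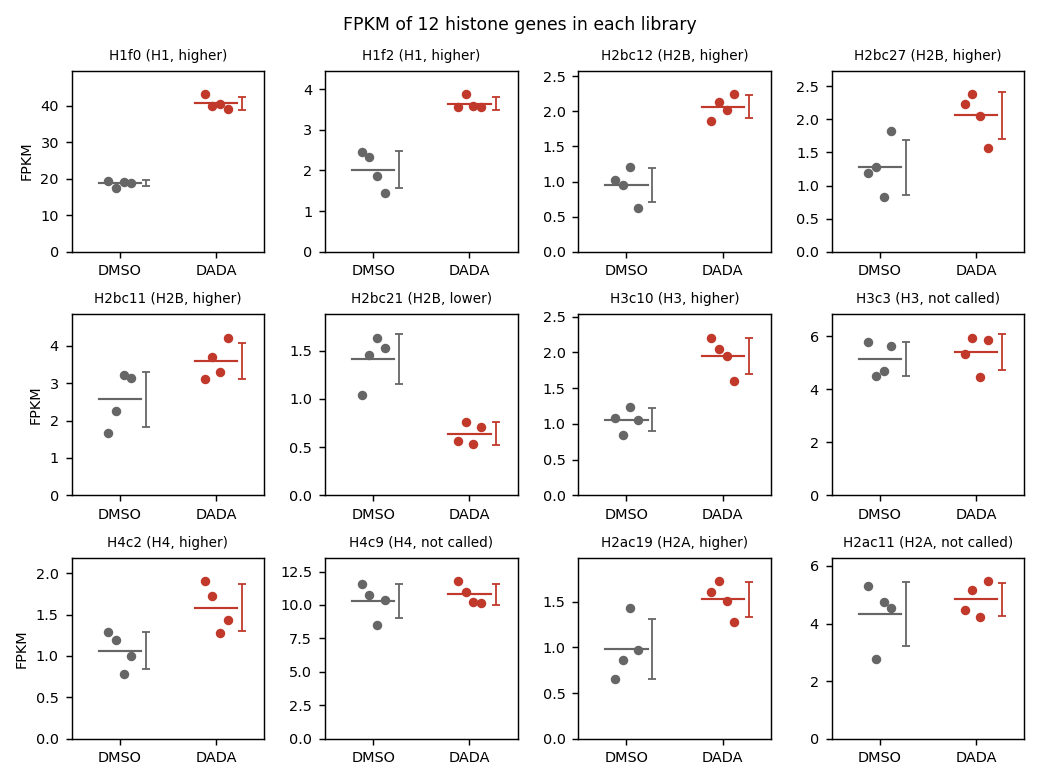
FPKM (y axis, from 0) of 12 histone genes in each DMSO library (grey) and DADA library (red). Points are the 4 libraries of a group, horizontal lines the mean and error bars the SD, and the title of each panel gives the type and the limma call. H1f0, H1f2, H2bc12 and H3c10 lie wholly higher with DADA, H2bc21 wholly lower, and H3c3, H4c9 and H2ac11 overlap.

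The 48 members under the filter were read from a second limma fit over all 16167 rows with a value above 0 in any library, which covered 70 of the 73 members. In that fit 15 members were called higher and 2 lower, and of the 11 called higher past the filter, H2ac13, H2ac23 and H2bc11 lost their call (limma adjusted p = 0.0841, 0.0712 and 0.0772). The share of members called higher was 21.4%, while of all rows 48.7% were called, with 24.8% higher and 23.9% lower. Groups that did not overlap were found for 11 of the 73 members with DADA above and for 2 below, against 23.2% and 22.6% of all rows in the fit. The largest values among the filtered members were those of H4c17 and H2ac15, which are named here after their values were seen. H4c17 stood at 0.702, 0.357, 0.41 and 0.272 FPKM with DMSO and at 1.56, 1.28, 0.877 and 1.69 with DADA (log2 difference 0.71, limma adjusted p = 0.00204). H2ac15 stood at 0.546, 0.433, 0.449 and 0.402 FPKM with DMSO and at 1.53, 1.38, 1.87 and 0.719 with DADA (log2 difference 0.68, limma adjusted p = 0.00402). Both lay wholly higher with DADA. H2bc15, also named after its values were seen, was the second member called lower, at 0.480 to 0.627 FPKM with DMSO and 0.117 to 0.377 with DADA (log2 difference -0.31, limma adjusted p = 0.00874). H4c17 and H2bc15 share 89% and 72.3% of their 75-base stretches with other genes, and H2ac15 shares 27%. How fragments were divided among such copies is uncertain.

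Members were also grouped by features that their choice did not use. The shares to read these counts against are those of the tested rows with a mean under 10 FPKM, of which 33.4% were called higher, 24.8% lower and 55.1% lay above 0. On the chromosome 13 cluster 18 members passed the filter, of which 7 rose (38.9%), none fell and all 18 had a log2 difference above 0. With quantile normalization several of these 18 lay below 0, the lowest at -0.23 (H2ac12). Only H1f2, H2bc12 and H3c10 of them were then called higher. On chromosome 3 it was 3 members, with 2 higher and 1 lower, and on chromosome 11 it was 2, with 1 higher. Of the 10 members past the filter whose transcript ends within 60 bases of its stem-loop, 6 rose and none fell, but only H2bc12 of the 6 kept its call with quantile normalization. Of the 7 whose transcript runs on beyond it, 2 rose, and of the 8 without a stem-loop match, 3 rose and 1 fell. Of the 12 that share more than 50% of their 75-base stretches with other genes, 7 rose, and of the other 13, 4 rose and 1 fell. These counts are small, the members of a group share sequence, and the differences between the groups were not tested. The low rows given for comparison reach higher levels than most members, so they are not a matched background.

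Summed over a type, the level per length was higher with DADA in each case, with no test since the members were chosen as a list. All 73 members summed to 84.2, 74.6, 79.0 and 78.8 FPKM with DMSO and to 120.6, 118.8, 111.2 and 115.8 with DADA, a ratio of 1.47 between the means. Much of that came from 1 gene, because the 67 members of the clusters summed to 58.3 ± 2.83 and 73.7 ± 3.35 FPKM (SD, n = 4 each), a ratio of 1.26. The H1 sum had a ratio of 2.02, which was 1.46 without H1f0. The H2A and H2B sums had ratios of 1.25 and 1.28, with no overlap between the groups. The H3 and H4 sums had ratios of 1.26 and 1.17, and the groups overlapped in both. Without H3c3 and without H4c9 these ratios were 1.44 and 1.48. The sums depended on the scaling. With quantile normalization the ratio was 1.33 for all members, 1.06 for H2A, 1.06 for H2B and 1.08 for H3.

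**Figure D3:**
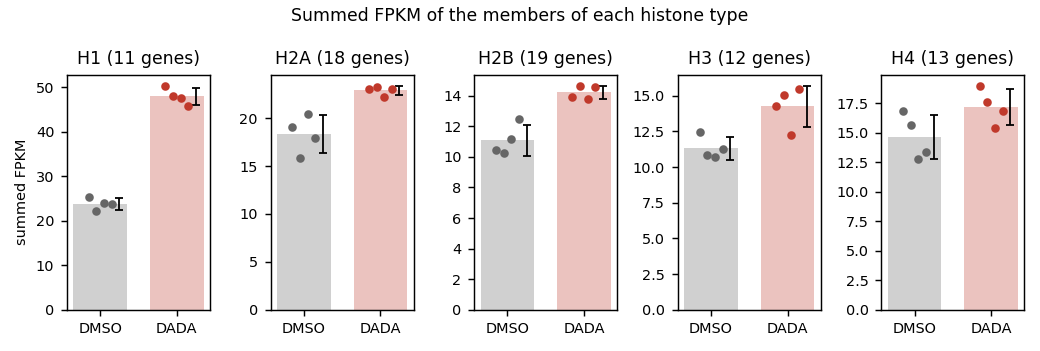
Summed FPKM (y axis, from 0) of all members of each histone type. Bars are the mean of 4 libraries, points the libraries and error bars the SD. The H1 sum goes from 23.8 to 48.0 FPKM, most of it H1f0, while the 4 core histone types lie between 11.1 and 22.9 FPKM with ratios of 1.17 to 1.28.

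Several histone variants encoded outside the clusters were far more abundant than any gene in them, while others, such as H2al3, listed at 0 in every library, and Macroh2a2, with a mean of 0.178 FPKM, were not. Of 12 such genes, a list that also holds H1f0 and H1f10, 10 passed the filter, with 4 higher, 4 lower and a median log2 difference of -0.06. The counts of this list and of those that follow are to be read against all 10666 rows tested. Of these rows 30.9% were called higher and 35.3% lower, with a median of -0.02. H2az1, which encodes the replacement variant H2A.Z, stood at 465.7, 468.8, 447.7 and 442.5 FPKM with DMSO and at 305.2, 311.6, 305.5 and 312.8 with DADA, a fall by 0.56 on the log2 scale (SE 0.024, limma adjusted p = 2.33e-08). H2ax, whose protein is phosphorylated at DNA breaks, stood at 39.2, 39.5, 39.7 and 32.2 FPKM with DMSO and at 22.2, 23.5, 21.7 and 21.8 with DADA, a log2 difference of -0.73 (SE 0.064, limma adjusted p = 4.10e-06). The groups did not overlap in either gene. Macroh2a1, which encodes a variant known from silent chromatin, rose from 123.8 ± 2.65 to 143.7 ± 1.5 FPKM (SD, n = 4 each), a log2 difference of 0.21 (limma adjusted p = 1.18e-05). H3f3a, 1 of 2 genes for the replacement histone H3.3, had a single DADA library at 182.3 FPKM and the others at 95.5 to 99.3, so its group mean rests on that library.

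Factors that transcribe and process the clustered histone mRNAs stood lower for the most part. Of 28 such genes 27 passed the filter, 3 rose, 15 fell and 9 did not pass the test, with a median log2 difference of -0.15. Among all rows tested 30.9% were called higher and 35.3% lower. Slbp, the stem-loop binding protein gene, fell from 65.3 ± 1.78 to 57.7 ± 3.09 FPKM, by 0.18 on the log2 scale (SE 0.039, limma adjusted p = 0.00241). Npat, the coactivator of histone gene transcription in S phase, fell from 14.2 ± 0.192 to 12.5 ± 0.236 FPKM (SD, n = 4 each), a log2 difference of -0.18 (limma adjusted p = 4.57e-04). Cdk2, the kinase that activates NPAT with cyclin E, had a log2 difference of -0.40, and Cpsf3, the nuclease that cuts histone and other pre-mRNAs at the 3′ end, one of -0.77. Among genes of the list past the filter, the 2 largest rises were Tut7, a uridylyltransferase of histone mRNA decay (0.25), and Zfp473, a zinc finger protein of the histone pre-mRNA machinery (0.24).

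Histone chaperones, which carry histones to and from DNA, had 28 of 28 genes past the filter, with 4 higher and 20 lower and a median log2 difference of -0.23. Rbbp7, a subunit shared by several histone-binding complexes, and Asf1a, which hands on H3 and H4, fell by 0.72 and 0.66 on the log2 scale. Daxx, a chaperone of H3.3, rose from 21.5 ± 0.653 to 42.3 ± 1.36 FPKM (SD, n = 4 each), a log2 difference of 0.95 (SE 0.033, limma adjusted p = 4.54e-09), and Hjurp, the chaperone of the centromeric H3 variant, rose by 0.31.

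Genes of S phase and DNA replication, with which clustered histone genes are usually expressed, fell in 43 of 48 cases and rose in 3, with a median log2 difference of -0.35. Among all rows tested 35.3% were called lower and 30.9% higher. Tyms and Tk1, enzymes of thymidylate supply, fell by 0.97 and 0.75 on the log2 scale, and Cdc6, a licensing factor of replication origins, and E2f1, an activator of S phase genes, rose by 0.47 and 0.19. Of 24 genes of G2 and mitosis 21 fell and 3 rose, with a median log2 difference of -0.52. Cdc20 and Kif20a had log2 differences of -0.79 each, Kif11 and Prc1 of 0.71 and 0.46, and Mki67, a marker of cycling cells, one of 0.12 (limma adjusted p = 0.024). Side by side, 11 of 25 members past the filter were called higher and 1 lower, or 4 and 2 with quantile normalization, while 3 of 48 S phase genes were called higher and 43 lower. The members were low and the S phase genes abundant, and the difference between the lists was not tested.

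**Figure D4:**
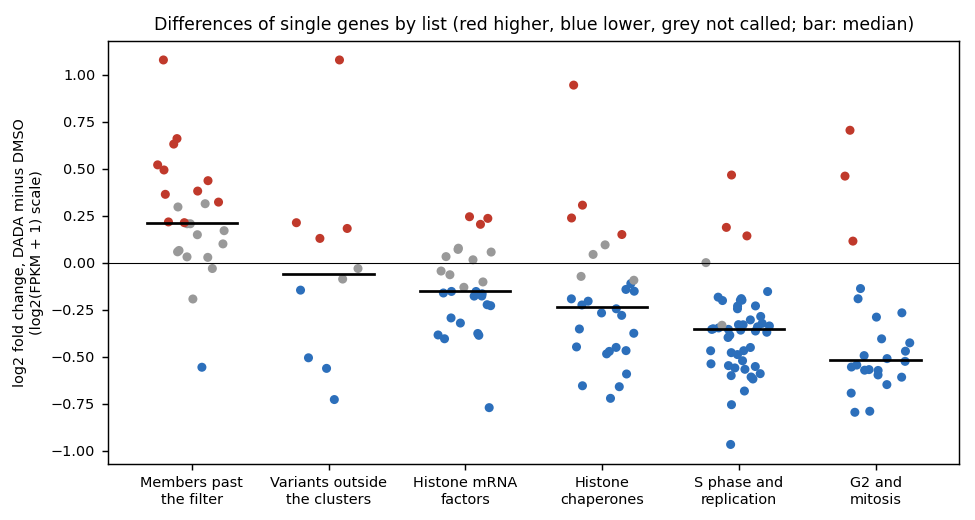
Log2 difference between DADA and DMSO on the log2(FPKM + 1) scale (y axis) for the histone genes past the filter and for 5 lists (x axis). Each point is a gene, red if called higher, blue if called lower and grey if not called, and bars are medians, which run from 0.21 for the histone genes to -0.52 for G2 and mitosis. H1f0 and H1f10 stand both among the members and among the variants.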

How the data were processed

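RNA of mouse CD8+ T cells in 8 libraries, 4 per group, was sequenced with paired reads of 150 bp. The authors deposited FPKM values for 22520 rows. The submitters' processing notes name CASAVA 1.8.2, FastQC 0.11.9, HISAT2 2.0.5, StringTie 1.3.3, Picard 1.41, SAMtools 0.1.18 and the builds GRCm39 and GRCh38, with no role given. The labels and the study's methods name different mRNA library kits, of which the name in the methods points to a stranded protocol. Whether the FPKM were computed by strand is not given in the sources used here. Without that, reads of the 24 members that overlap a gene on the other strand cannot be told apart from it. A minimum sequence yield is stated, but not the mapped fragments of each library, so no interval from counts is given.

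Groups came from the sample titles. The labels do not say whether libraries came from separate animals, so p-values measure the spread between these libraries only. Values were analysed as log2(FPKM + 1) with limma 3.58.1 in R 4.3.3 (1 term for DADA, eBayes with trend, Benjamini-Hochberg over all 10666 rows with at least 1 FPKM in at least 4 libraries, adjusted p under 0.05), and in a second fit over 16167 rows. This scale understates differences of low genes. The members and lists were chosen with earlier results of these data known. The named genes were, per type, the highest member and the 3 largest called rises and falls, and per list the 2 largest each way plus Slbp, Npat and Mki67. H1f1, H1f3, H1f4, H1f5, H1f6, H1f10, H2ac12, H2ac15, H2ac18, H2ac25, H2bc15, H4c17, H3f3a, H2al3 and Macroh2a2 are outside this rule and were chosen after their values were seen. Copies, stem-loops and neighbours came from GENCODE M21, matched by gene ID for all 73 members, and promoters from RefSeq. Proteins were not analysed here, nor was a list of other RNAs without a poly(A) tail. Alternatives were a pseudocount of 0.1, no filter, a mean of at least 5 FPKM, TPM, median-ratio and quantile scaling, no trend, a replicate block and each library left out. Figures used matplotlib 3.10.9.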

Additional observations from a re-analysis of the deposited data

Results flagged for a closer look

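In groups of 4 libraries, a library was listed where its gap to the nearest other, over the range of its group, exceeded Dixon's 95% critical value. That was so in 8 of 106 groups, and chance gives about 1 in 20, or about 5. The groups screened did not take in every gene described above, so the list is not complete. Among members, H1f2 was at 3.87 FPKM in DADA library 2 against 3.55 to 3.58 in the others (0.889), and H2ac18 at 1.26 FPKM in DADA library 4 against 1.35 to 1.36 (0.909). H1f10 was at 1.29 FPKM in DMSO library 2 against 2.04 to 2.17 (0.85), H2bc4 at 0.853 FPKM in DMSO library 3 against 1.56 to 1.69 (0.842), and H3c1 at 1.35 FPKM in DMSO library 2 against 0.945 to 1.01 (0.83). Outside the members, H2ax was at 32.2 FPKM in DMSO library 4 against 39.2 to 39.7 (0.929), Slbp at 67.9 FPKM in DMSO library 1 against 64.1 to 64.7 (0.847), and Npat at 13.9 FPKM in DMSO library 2 against 14.3 in the others (0.95). H3f3a, at 182.3 FPKM in DADA library 3 against 95.5 to 99.3 in the others, was not among the groups screened.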

How the results depend on the processing

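The calls of H1f0, H1f2, H2bc12 and H3c10 were the same in every alternative in which they were tested, and so was that of H2bc21. The number of members called higher, 11 by default, was 1 when a mean of 5 FPKM was required, where 3 members were tested, and 4 with quantile normalization, and it ran from 7 (without DADA library 2) to 11 when 1 library was left out. The number called lower, 1 by default, was 2 without a filter, 2 with TPM and 2 with quantile normalization, 0 where a mean of 5 FPKM was asked for, and 0 to 1 with 1 library left out, since H2bc21 then missed the filter. In the fit over all rows above 0, quantile normalization gave 7 members called higher against 15, and leaving out 1 library 11 to 16. With quantile normalization the ratio of sums was 1.33 for all members, 1.06 for H2A, 1.06 for H2B and 1.08 for H3. Without the highest member it was 1.46 for H1, 1.44 for H3 and 1.48 for H4. TPM scaling gave 6 higher calls among the factors of histone mRNA against 3. Log2 differences that changed sign were all uncalled. With quantile normalization they were -0.20 for H2ac4, -0.23 for H2ac12, -0.07 for H2bc4, -0.01 for H2bc8, -0.02 for H3c3 and -0.05 for H3c1. With 1 library left out the range was -0.14 to 0.02 for H1f10, -0.01 to 0.24 for H2ac11, -0.08 to 0.15 for H2ac4, -0.04 to 0.14 for H2ac12, -0.03 to 0.17 for H2bc4 and -0.01 to 0.12 for H4c9. The cause was not tested.

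Same-numbered libraries did not deviate together (correlations of -0.12 to 0.0953), so the numbers were not taken as pairs. With the replicate block 9 members were called higher and 1 lower, and 6995 rows were called against 7064. For members under 1 FPKM the counting error is not known, because the mapped fragments of each library are not given in the sources used here.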
